A study of Saccharomyces cerevisiae with 39 samples.

Results

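The effect of rrp4-G226D and the effect of rrp40-W195R on the RNA of budding yeast were compared as a difference of differences, in which the change of each allele against its own wild-type control came first and the 2 changes were then set against each other. The comparison took the 12 libraries of 4 groups, of 39 libraries in 13 groups in the whole study, and the members were chosen by their labels alone. The study, by its title, compared disease-linked missense changes of RNA exosome genes modelled in yeast. The rrp4-G226D and RRP4 cells were MATα, ura3Δ0 leu2Δ0 his3Δ1 lys2Δ0, lacked the chromosomal RRP4 gene (rrp4Δ::NEO) and carried a low-copy LEU2 CEN6 plasmid of the pRS315 type with rrp4-G226D or wild-type RRP4. The rrp40-W195R and RRP40 cells were MATa, ura3Δ0 leu2Δ0 his3Δ1, lacked the chromosomal RRP40 gene (rrp40Δ::NEO) and carried rrp40-W195R or wild-type RRP40 on the same kind of plasmid. Every group therefore lacked the chromosomal copy of the gene it carried on a plasmid, each family came as its own strain, and the families differed in mating type and at LYS2 as well as in the exosome gene. All 12 cultures, 3 per group and described as biological triplicates, were grown in 10 mL of minimal glucose medium without leucine at 37 °C for 5 h, and total RNA was sequenced after rRNA removal.

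The RNA exosome is a barrel of subunits that threads RNA to the 3′-5′ nuclease Dis3 and, in the nucleus, to Rrp6. The RNA-binding subunits Rrp4, Rrp40 and Csl4 form the cap through which RNA enters, and in the nucleus the complex trims precursors of ribosomal, small nucleolar and small nuclear RNA and removes cryptic unstable transcripts (CUTs). The human counterparts of Rrp4 and Rrp40 are EXOSC2 and EXOSC3, in which missense changes cause inherited disorders of development and of the nervous system. The wild-type codons that the alleles replace are shown because the labels give no other difference between mutant and control within a family. Both stretches are RefSeq sequence of build R64, read along the coding strand, with the codon in capitals.
RRP4, glycine codon replaced in rrp4-G226D, chrVIII:233951-234013, minus strand: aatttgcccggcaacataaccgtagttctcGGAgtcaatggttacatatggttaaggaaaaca
RRP40, tryptophan codon replaced in rrp40-W195R, chrXV:56110-56172, plus strand: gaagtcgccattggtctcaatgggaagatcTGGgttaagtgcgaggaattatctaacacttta
The substituted bases were not given in the sources used here.

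The 12 libraries held 17244127 to 50306533 counted reads over 8898 features, which are genes and other annotated transcripts, and 7741 features passed the filter on low counts. The labels describe separate cultures, so the spread between the 3 libraries of a group includes that between cultures. Levels are given as CPM, the reads of a feature relative to the size of its library, with sizes corrected for composition by TMM factors. These factors were 1.18 to 1.21 in rrp4-G226D and 0.935 to 0.961 in RRP4 libraries, and 1.03 to 1.08 in rrp40-W195R and 0.826 to 0.849 in RRP40 libraries. Scaling by library totals alone moved the median effect by 0.329 (log2) in the rrp4-G226D comparison and by 0.324 in the rrp40-W195R comparison, but the difference of effects by 0.006. A direction within 1 family therefore depends on this scaling where the effect is small, and the difference between families hardly does. The genotype markers matched the labels: LYS2 had 0 to 3 reads in each library of the RRP4 family and 6923 to 13130 in each of the RRP40 family. STE2, the receptor of MATa cells, had 14.1, 14.6 and 17.2 CPM in rrp4-G226D and 10.4, 12.3 and 10.7 CPM in RRP4 libraries, against 565, 539 and 555 CPM in rrp40-W195R and 611, 566 and 601 CPM in RRP40 libraries. STE3, the receptor of MATα cells, had the opposite order.

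Both alleles changed a large part of the transcriptome, and the changes were partly the same. With rrp4-G226D, 2609 features rose and 2588 fell against RRP4, which together is 67.1% of the 7741 tested (33.7% and 33.4%). With rrp40-W195R, 2302 rose and 2134 fell against RRP40, together 57.3% (29.7% and 27.6%). All calls are at an adjusted p under 0.05 in edgeR's quasi-likelihood test with Benjamini-Hochberg adjustment over all features. In all, 2972 features were called in the same direction with both alleles, 1450 higher and 1522 lower (3951 and 370 with library totals), and for 1807 of them the 95% interval of the difference of effects lay within 0.5 on the log2 scale in either direction. The 2 effects differed by the test of the difference itself for 2888 features, or 37.3%. In 1343 of these (17.3%) the rrp4-G226D effect was the higher one, and in 1545 (20%) the lower one. At an unadjusted p under 0.05 there were 3562. At least 2-fold differences were few, 167 higher and 82 lower. Across the 7741 features the 2 effects had a Pearson correlation of 0.619 and a Spearman correlation of 0.636, a description over features that share libraries. The SD over features was 0.561 for the rrp4-G226D effect, 0.482 for the rrp40-W195R effect and 0.461 for their difference, on the log2 scale.

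**Figure D1:**
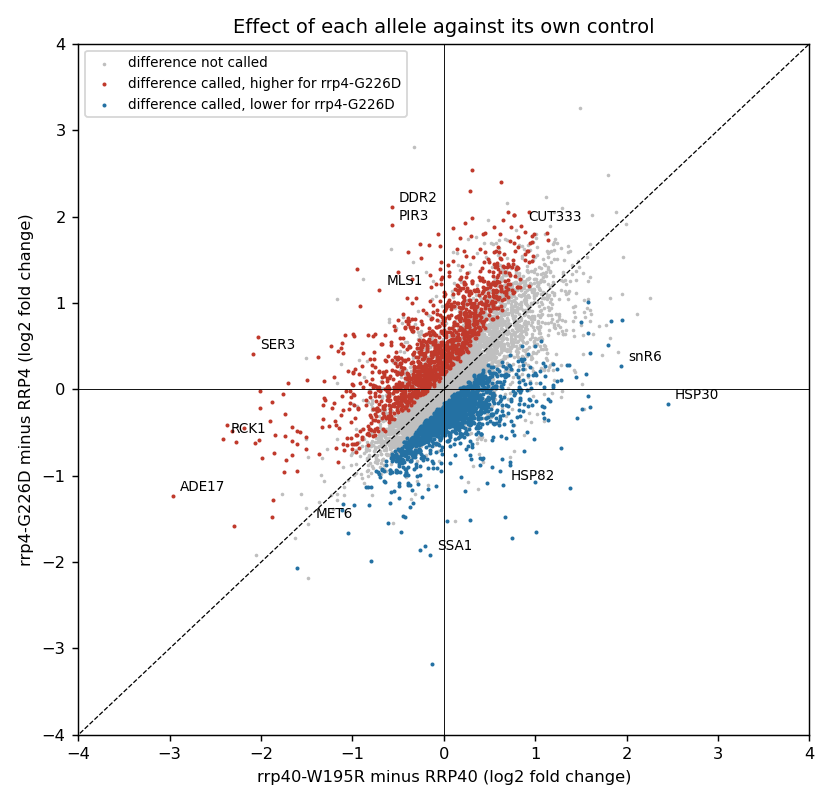
Log2 fold change of each of 7741 features in rrp4-G226D against RRP4 (y axis) and in rrp40-W195R against RRP40 (x axis), each from 3 libraries a group; red and blue points are the 1343 and 1545 features whose difference of effects was called, and the dashed line marks equal effects. The cloud runs along the line, while DDR2 and PIR3 lie in the field where rrp4-G226D rose and rrp40-W195R fell, HSP82 lies in the opposite one, and ADE17 and SER3 lie above the line.

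Where both effects were called in one direction and also differed (866 features), the larger effect was that of rrp4-G226D in 680 and that of rrp40-W195R in 186. Opposite calls that also differed were made for 425 features, of which 158 were higher with rrp4-G226D and lower with rrp40-W195R, and 267 the reverse. With library totals there were 268 opposite calls, 122 and 146.

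The largest shared falls without a called difference were in genes of methionine synthesis, the ribosome and sugar uptake. Only features without a called difference, with a mean of at least 10 CPM, were considered here and for the shared rises below. MET6, methionine synthase, had 385, 347 and 412 CPM in rrp4-G226D and 1143, 1198 and 1026 CPM in RRP4 libraries, against 982, 1073 and 1016 CPM in rrp40-W195R and 3130.4, 2839.8 and 2616 CPM in RRP40 libraries. In each family the mutant libraries lay below all 3 of their controls, and the RRP40 controls lay above all other libraries. Its fold change was -1.56 (log2) with rrp4-G226D and -1.48 with rrp40-W195R, and the difference of -0.07 ± 0.11 (adjusted p = 0.623), given ± SE as in all differences, was not called (95% interval -0.30 to 0.15). RPS3, a protein of the small ribosomal subunit, changed by -1.38 and -1.50 (difference 0.13 ± 0.11, adjusted p = 0.392), ASC1, a ribosome-bound signalling protein, by -1.44 and -1.32, and HXT4, a hexose transporter, by -1.31 and -1.37, in each case rrp4-G226D first. The lack of a called difference was a condition for naming these 4 genes and is no result. Without rrp40-W195R replicate 2 the difference for RPS3 was 0.26 and was called. ASC1 shares its locus with snR24, so reads of that snoRNA may be included. On the rising side, CUT347 changed by 1.37 with rrp4-G226D and 1.45 with rrp40-W195R, and the open reading frames YDR215C by 1.66 and 1.36, YNL034W by 1.37 and 1.16, and YHR213W by 1.14 and 1.32. Without rrp4-G226D replicate 2 the difference for YDR215C was 0.44, and without rrp40-W195R replicate 3 that for YNL034W was 0.30, both then called. Of 21 glycolysis and fermentation genes, 18 fell with each allele, with medians of -0.84 and -0.80, and the difference was called in 1 upwards (4.76%) and 3 downwards (14.3%), against 17.3% and 20% of all features. With library totals the medians of the effects were -0.51 and -0.48. The downward count was 6 without rrp40-W195R replicate 1, and the upward one 0 without replicate 3 of RRP4, rrp4-G226D or rrp40-W195R or without RRP40 replicate 2.

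Ribosomal protein genes fell with both alleles, while the genes that build ribosomes had a lower effect with rrp4-G226D than with rrp40-W195R. Of 137 cytosolic ribosomal protein genes, 3 rose, 7 were not called and the others fell with rrp4-G226D, while 6 rose and 128 fell with rrp40-W195R. The median effects were -0.58 and -0.60, and 124 genes fell with both. With library totals the medians were -0.25 and -0.28, and 108 fell with rrp4-G226D and 105 with rrp40-W195R. The difference of effects was called higher in 14 (10.2%) and lower in 8 (5.84%) of them, against 17.3% and 20% of all features, and its median was 0.03. These counts rested on single libraries: the higher count was 37 without rrp40-W195R replicate 2, and the lower count was 15 without rrp40-W195R replicate 1, 4 without rrp40-W195R replicate 3, and 5 without RRP4 replicate 3 or rrp4-G226D replicate 3. The ribosome assembly genes, which encode factors that process and fold pre-ribosomal RNA, had another pattern. Of 131 tested, the difference was called lower in 122 (93.1%) and higher in 0, with a median of -0.51. With rrp4-G226D 113 of them fell and 1 (NOC4, named after its value was seen) rose, with a median of -0.29, and with rrp40-W195R 90 rose and 8 fell, with a median of 0.22. The fall with rrp4-G226D depended on the scaling, since with library totals 12 fell and 35 rose, with a median of 0.04, while with rrp40-W195R 125 rose and 1 fell, and the median difference was -0.50. Without rrp40-W195R replicate 2, 15 fell with rrp40-W195R, and the rise of NOC4 was not called without RRP4 replicate 1 or 2 or rrp4-G226D replicate 2.

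Summed over the 131 genes, the assembly genes took 26680.3 ± 752 CPM in rrp4-G226D and 32462 ± 622 CPM in RRP4 libraries, against 25854 ± 602 CPM in rrp40-W195R and 23981 ± 558 CPM in RRP40 libraries (mean ± SD, n = 3 each). The means of the mutants lay nearer to each other than those of the controls. Directly compared, the RRP4 controls were higher than the RRP40 controls in 115 of the 131 genes and lower in 5, where 29.3% and 28.2% of all features were. In 108 of the 122 differing genes the mutants were closer to each other than the controls were, against 1558 of 2888 differing features in all. RRP36, an early small-subunit processing factor, had 44.4, 47.4 and 42.7 CPM in rrp4-G226D and 52.5, 52.2 and 54.6 CPM in RRP4 libraries, against 34.7, 42.3 and 32.4 CPM in rrp40-W195R and 22.2, 20.3 and 19.0 CPM in RRP40 libraries. The rrp40-W195R libraries all lay above the RRP40 libraries, and the rrp4-G226D libraries all below the RRP4 ones. Its effect was -0.24 with rrp4-G226D, which was 0.085 with library totals, and 0.82 with rrp40-W195R, a difference of -1.06 ± 0.12 (adjusted p = 3.07e-06). DBP8, an RNA helicase of the same pathway, differed by -1.05 ± 0.12 (adjusted p = 1.74e-05), and DBP3, a helicase of large-subunit assembly, by -1.02 ± 0.16 (adjusted p = 6.77e-05), with -0.41 for rrp4-G226D and 0.61 for rrp40-W195R.

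**Figure D2:**
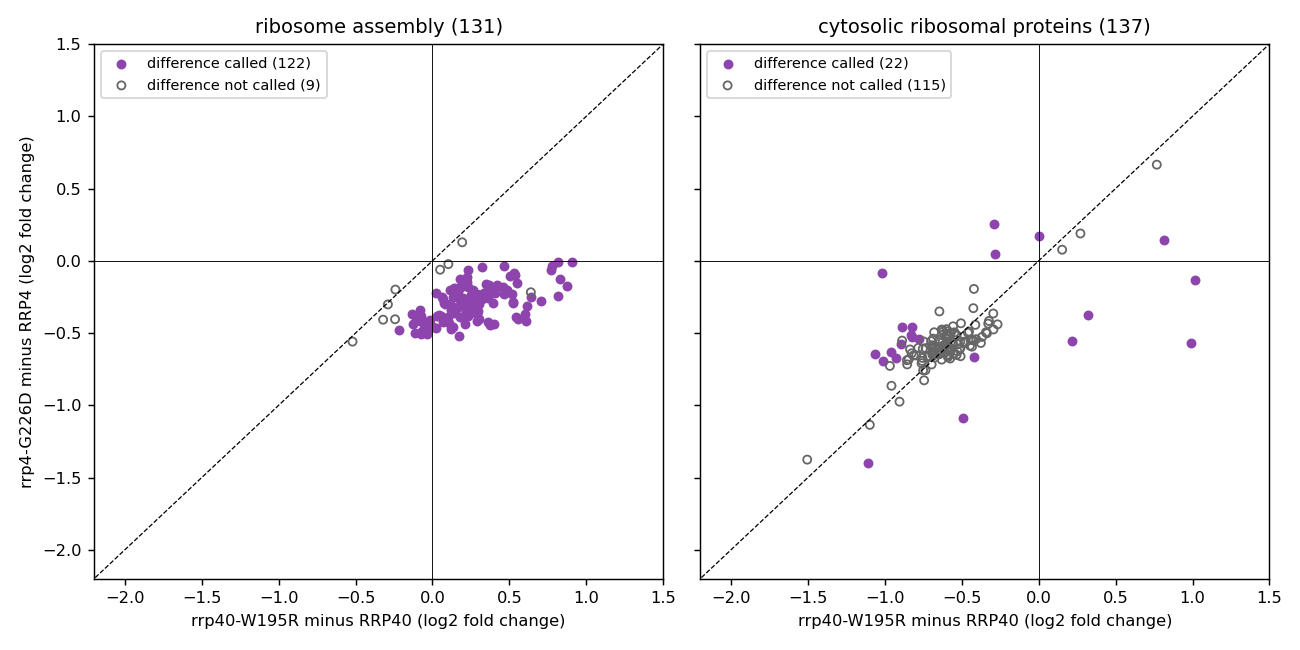
Log2 fold change with rrp4-G226D (y axis) and with rrp40-W195R (x axis) for the 131 ribosome assembly genes (left) and the 137 cytosolic ribosomal protein genes (right); filled points are genes whose difference of effects was called, 122 and 22, and the dashed line marks equal effects. Of the 131 assembly genes 130 lie below the line, and the ribosomal protein genes form a cloud on it.

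The ribosomal protein genes outside that cloud included RPL8A, with 1042, 1045 and 1018 CPM in rrp4-G226D and 1074, 1076 and 1144 CPM in RRP4 libraries, against 496, 534 and 558 CPM in rrp40-W195R and 1082, 1075 and 1058 CPM in RRP40 libraries. The rrp40-W195R libraries lay below all others. RPL8A changed by -1.02 with rrp40-W195R and by -0.09, not called, with rrp4-G226D, which was 0.24 and called with library totals, and the difference was 0.93 ± 0.073 (adjusted p = 5.62e-08). RPL7B differed by 0.55 ± 0.08 (adjusted p = 4.33e-05), with 0.26 for rrp4-G226D and -0.29 for rrp40-W195R, the second 0.036 with library totals, and RPL15B by -0.60 ± 0.081 (adjusted p = 1.97e-05). RPL8A, RPL7B and RPL15B each have a close paralog, so the split of reads between copies is uncertain, and RPL7B overlaps snR59. Of the 8 members with a lower difference, 5 (RPL22A, RPL33A, RPL36B, RPL39 and RPL43A, named after their values were seen) were also the only members with a mean under 10 CPM, where the median member had 747 CPM. What part of these genes was counted is not given in the sources used here. GATGAG, the core of the PAC element known from assembly genes, was looked for on both strands in the window from 350 to 101 bases before the start codon; 79 of 131 assembly genes (60.3%) and 17 of 137 ribosomal protein genes (12.4%) held it, against 955 of 5987 protein-coding genes (16%). The window of RRP36 is shown because its difference was the largest of the 131 (RefSeq R64, gene strand, motif in capitals).
RRP36 upstream window, chrXV:851940-852189, minus strand: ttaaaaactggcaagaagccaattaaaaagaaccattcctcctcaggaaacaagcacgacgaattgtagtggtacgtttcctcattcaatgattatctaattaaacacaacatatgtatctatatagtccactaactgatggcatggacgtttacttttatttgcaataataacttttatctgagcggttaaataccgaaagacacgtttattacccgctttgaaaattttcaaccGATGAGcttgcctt
Of the 894 tested protein-coding genes with GATGAG in this window, the difference was called lower in 318 (35.6%) and higher in 116 (13%), against 1429 (25.3%) and 992 (17.6%) of all 5651 with a window. The motifs were chosen with the results known, and a match is a description of the sequence.

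Most genes of purine, one-carbon, histidine and biotin metabolism had the lower effect with rrp40-W195R. Of 10 purine synthesis genes, 7 fell with rrp4-G226D and 10 with rrp40-W195R, with medians of -0.46 and -1.22, and the difference was called higher in 9 (90%) and lower in 0, against 17.3% and 20% of all features, with a median of 0.97. The fall with rrp4-G226D depended on the scaling, since with library totals 3 genes fell and 2 rose with it, with a median of -0.13, while 8 fell with rrp40-W195R, with a median of -0.89, and the median difference was 0.98. The tenth, ADE16, had a difference that was not called. ADE17, which catalyses the last steps to inosine monophosphate, had 94.9, 80.1 and 88.1 CPM in rrp4-G226D and 216, 215 and 189 CPM in RRP4 libraries, against 204, 157 and 107 CPM in rrp40-W195R and 1343, 1282 and 1030.5 CPM in RRP40 libraries. The rrp4-G226D libraries lay below the RRP4 ones, the rrp40-W195R libraries overlapped the RRP4 ones, and the RRP40 controls lay above all others. The effect was -1.24 with rrp4-G226D and -2.97 with rrp40-W195R, a difference of 1.73 ± 0.30 (adjusted p = 0.00221). ADE2 differed by 1.33 ± 0.19 (adjusted p = 0.000388), and ADE12, adenylosuccinate synthase, by 1.04 ± 0.10 (adjusted p = 1.54e-06), where its change with rrp4-G226D was -0.16, not called, and 0.17 with library totals. It was called, as a fall, in 6 of the 12 fits that left out 1 library (RRP4 replicate 1, rrp40-W195R replicate 2 or 3, any RRP40 library). In 9 of 9 differing purine genes the mutants were closer to each other than the controls were, against 1558 of 2888 differing features in all. The RRP4 controls were lower than the RRP40 controls in 10 of 10 purine genes, with a median of -0.94, and in 28.2% of all features.

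Serine and glycine feed one-carbon units into purine synthesis. Of 14 serine, glycine and one-carbon genes, 10 fell and 1 rose with rrp4-G226D, 12 fell with rrp40-W195R, and the difference was called higher in 10 (71.4%) and lower in 2 (14.3%), against 17.3% and 20% of all features, with a median of 0.46. With library totals 3 fell and 4 rose with rrp4-G226D, with a median of -0.03 where it was -0.36, and 11 fell and 2 rose with rrp40-W195R. GCV1 and GCV2, subunits of the glycine decarboxylase, had effects of -0.01 and -0.22 with rrp4-G226D, neither of them called (that of GCV2 was called without RRP40 replicate 3), and of -2.01 and -2.01 with rrp40-W195R. GCV1 had 84.5, 66.9 and 73.1 CPM in rrp4-G226D and 77.5, 78.8 and 70.1 CPM in RRP4 libraries, which overlap, against 63.6, 62.4 and 49.5 CPM in rrp40-W195R and 255, 259 and 190.8 CPM in RRP40 libraries. In the RRP40 family, no overlap was a condition for naming GCV1. The difference was 1.996 ± 0.20 (adjusted p = 6.12e-05) for GCV1 and 1.79 ± 0.21 (adjusted p = 0.000147) for GCV2. SER3, phosphoglycerate dehydrogenase of serine synthesis, had 148, 153 and 154 CPM in rrp4-G226D and 114, 115 and 114 CPM in RRP4 libraries, against 207, 192 and 154 CPM in rrp40-W195R and 940.0, 803 and 615 CPM in RRP40 libraries. It rose with rrp4-G226D by 0.41 and fell by 2.09 with rrp40-W195R, a difference of 2.50 ± 0.21 (adjusted p = 1.76e-05). The rise of SER3 was not called in 8 of the 12 fits that left out 1 library, namely any RRP4 or rrp4-G226D library, RRP40 replicate 2 or rrp40-W195R replicate 2, while its difference was called in all 12. Without rrp40-W195R replicate 3, 1 gene of the list had a lower difference. SRG1, the noncoding RNA known to be transcribed across the SER3 promoter, overlaps the annotated SER3 locus, and their reads may be shared.

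Of 6 histidine synthesis genes (HIS3, a strain marker, left out), 6 fell with rrp4-G226D and 5 with rrp40-W195R, and the difference was called higher in 4, HIS1, HIS4, HIS5 and HIS7 (HIS1 named after its value was seen), and lower in 1. HIS4, a trifunctional enzyme, had 129, 117 and 127.2 CPM in rrp4-G226D and 165, 199 and 198 CPM in RRP4 libraries, against 167, 166 and 151 CPM in rrp40-W195R and 682, 706 and 583 CPM in RRP40 libraries. The difference was 1.44 ± 0.11 (adjusted p = 5.65e-07). Of 5 genes of biotin synthesis and uptake, the difference was called higher in 4 and lower in 0. BIO4 and BIO3, enzymes of biotin synthesis, differed by 1.71 ± 0.13 (adjusted p = 5.12e-07) and 1.12 ± 0.14 (adjusted p = 0.000111), and the biotin importer VHT1 by 0.59 ± 0.13 (adjusted p = 0.00248). Of 22 sulfate assimilation and methionine genes, the difference was called higher in 12 (54.5%) and lower in 3 (13.6%), against 17.3% and 20% of all features. MUP1, the main methionine permease, changed by 0.36 with rrp4-G226D and -0.51 with rrp40-W195R, a difference of 0.87 ± 0.084 (adjusted p = 5.65e-07). Branched-chain amino acid genes went the other way, with 6 of 11 lower and 1 higher (0 without RRP40 replicate 1 or 2): LEU1 fell by 1.17 with rrp4-G226D and by 0.55 with rrp40-W195R, a difference of -0.63 ± 0.072 (adjusted p = 4.07e-06), and OAC1, a mitochondrial carrier, differed by -0.83 ± 0.082 (adjusted p = 7.36e-07). LEU2 itself, the plasmid marker, differed by -0.59 ± 0.11 (adjusted p = 0.000453).

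TGACTC, a core sequence that the activators Bas1 and Gcn4 are known to bind, was present in the same window of 8 of 10 purine genes (80%), 9 of 14 one-carbon genes (64.3%) and 4 of 6 histidine genes (66.7%), on either strand, against 425 of 5987 protein-coding genes (7.1%). ADE17 and HIS4 are shown for their differences above, with each TGACTC in capitals.
ADE17 upstream window, chrXIII:509381-509630, minus strand: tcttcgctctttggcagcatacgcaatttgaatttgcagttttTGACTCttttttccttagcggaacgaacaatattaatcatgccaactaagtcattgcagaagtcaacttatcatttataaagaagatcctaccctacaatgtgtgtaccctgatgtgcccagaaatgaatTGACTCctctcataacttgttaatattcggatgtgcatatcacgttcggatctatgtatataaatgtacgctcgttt
HIS4 upstream window, chrIII:68434-68683, minus strand: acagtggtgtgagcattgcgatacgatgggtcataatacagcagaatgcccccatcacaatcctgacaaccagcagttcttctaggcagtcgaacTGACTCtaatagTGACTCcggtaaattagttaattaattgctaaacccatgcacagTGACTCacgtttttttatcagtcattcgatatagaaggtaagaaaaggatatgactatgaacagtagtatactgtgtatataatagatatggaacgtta
These windows hold 2 matches at ADE17 and 3 at HIS4. Among the 403 tested genes with the motif, the difference was called higher in 113 (28%) and lower in 89 (22.1%), against 992 (17.6%) and 1429 (25.3%) of all 5651 genes with a window.

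**Figure D3:**
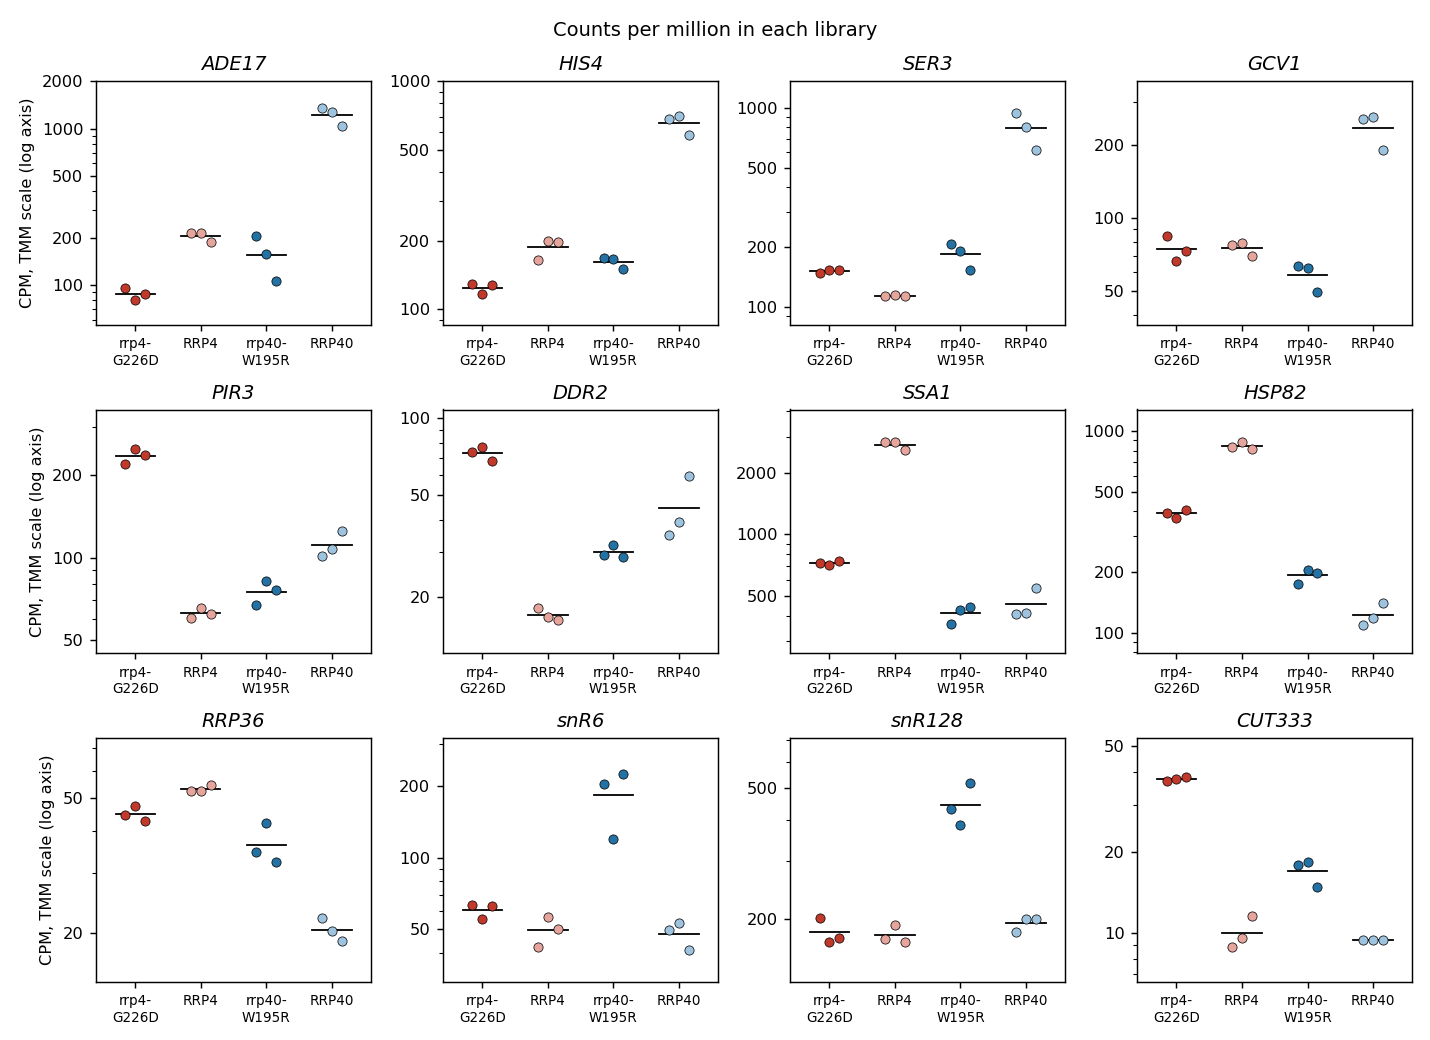
CPM on the TMM scale (log axis) of 12 named features in each library, with points for the 3 libraries of a group and a line for their mean; groups run from rrp4-G226D and RRP4 to rrp40-W195R and RRP40. In ADE17, HIS4, SER3 and GCV1 the RRP40 controls stand above the other 3 groups, in SSA1 and HSP82 the RRP4 controls do, in PIR3 and CUT333 the rrp4-G226D libraries, and in snR6 and snR128 the rrp40-W195R libraries.

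The largest positive difference among the named features was that of DDR2, a small protein induced by many stresses, with 74.0, 77.2 and 68.3 CPM in rrp4-G226D and 18.2, 16.7 and 16.3 CPM in RRP4 libraries, against 29.2, 32.0 and 28.8 CPM in rrp40-W195R and 35.0, 39.2 and 59.4 CPM in RRP40 libraries. The rrp4-G226D libraries lay above every other library, and the rrp40-W195R libraries just below the RRP40 ones. No overlap of mutant and control in the family with the larger effect was a condition for naming features by size. This applies to DDR2, and to PIR3, AGP1, SSA1, HSP82 and snR128 below. DDR2 rose by 2.11 with rrp4-G226D and fell by 0.57 with rrp40-W195R, a difference of 2.68 ± 0.24 (adjusted p = 2.05e-05). The fall with rrp40-W195R was -0.25 and not called with library totals, and was also not called without rrp40-W195R replicate 3. PIR3, a protein of the outer cell wall, had 219, 248 and 237 CPM in rrp4-G226D and 60.2, 65.5 and 62.3 CPM in RRP4 libraries, against 67.0, 82.3 and 75.9 CPM in rrp40-W195R and 101, 108 and 125 CPM in RRP40 libraries. The difference was 2.47 ± 0.12 (adjusted p = 1.35e-08). Of 21 cell wall integrity genes, the difference was called higher in 12 (57.1%) and lower in 0, against 17.3% and 20% of all features. With rrp4-G226D 6 rose and 8 fell, and with rrp40-W195R 0 rose and 18 fell. With library totals 14 rose and 2 fell with rrp4-G226D, and 4 rose and 6 fell with rrp40-W195R. Without rrp40-W195R replicate 2, 2 of the 21 had a lower difference and 1 rose with rrp40-W195R. CWP1, a cell wall mannoprotein, changed by -0.43 with rrp4-G226D and -1.67 with rrp40-W195R, and PST1, induced by wall damage, by 0.35 and -0.81; the differences were 1.24 ± 0.10 (adjusted p = 3.43e-07) and 1.16 ± 0.081 (adjusted p = 1.8e-08).

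Of 37 general stress and storage carbohydrate genes, the difference was called higher in 14 (37.8%) and lower in 4 (10.8%), or in 2 without RRP4 replicate 3, rrp4-G226D replicate 2 or rrp40-W195R replicate 2 or 3. Over all features the shares were 17.3% higher and 20% lower. The controls of the families differed widely in this list, RRP4 being lower than RRP40 in 27 of the 37 with a median of -1.25. In 5 of the 37 RRP4 was higher. Of all features 28.2% were lower and 29.3% higher. GSY1, glycogen synthase, had 38.1, 33.8 and 42.9 CPM in rrp4-G226D and 25.4, 30.5 and 25.9 CPM in RRP4 libraries, against 333, 375 and 342 CPM in rrp40-W195R and 709.6, 706 and 877 CPM in RRP40 libraries. The difference was 1.61 ± 0.15 (adjusted p = 1.22e-05). AGGGG, the stress response element of the Msn2 and Msn4 activators, was held, as AGGGG or CCCCT, by 33 of the 37 windows (89.2%), against 1206 of 5987 (20.1%); the window of DDR2 has 3 matches, shown in capitals. Among the 1139 tested genes with this motif the difference was called higher in 288 (25.3%) and lower in 205 (18%), against 17.6% and 25.3% of all 5651 genes with a window.
DDR2 upstream window, chrXV:231856-232105, minus strand: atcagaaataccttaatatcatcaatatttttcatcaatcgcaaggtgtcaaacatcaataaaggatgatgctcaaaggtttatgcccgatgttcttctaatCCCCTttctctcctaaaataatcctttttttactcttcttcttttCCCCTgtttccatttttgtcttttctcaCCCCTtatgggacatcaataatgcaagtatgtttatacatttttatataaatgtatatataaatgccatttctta
Further features in which the rrp40-W195R effect was the lower one were RCK1, a protein kinase of the oxidative stress response (1.84 ± 0.29, adjusted p = 0.00106), RTC2, a vacuolar amino acid transporter (1.79 ± 0.19, adjusted p = 7.49e-06), AGP1, an amino acid permease (1.74 ± 0.17, adjusted p = 2.65e-05), and the neighbouring genes AAD10 (1.74 ± 0.22, adjusted p = 0.000237) and YJR154W (1.96 ± 0.17, adjusted p = 9.27e-06), together with YGR067C (1.75 ± 0.17, adjusted p = 4.32e-06). For AGP1 the values were 88.4, 94.0 and 83.4 CPM in rrp4-G226D and 105, 101 and 88.6 CPM in RRP4 libraries, against 79.1, 75.5 and 87.6 CPM in rrp40-W195R and 334, 320.1 and 241 CPM in RRP40 libraries, with the RRP40 controls above all other libraries.

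The abundant chaperone genes SSA1, SSA2, HSP82 and HSC82 had lower effects with rrp4-G226D than with rrp40-W195R. SSA1, a cytosolic Hsp70, had 723, 708 and 742 CPM in rrp4-G226D and 2836, 2817 and 2581 CPM in RRP4 libraries, against 363, 427 and 443 CPM in rrp40-W195R and 408, 414 and 549 CPM in RRP40 libraries. The RRP4 libraries lay above all others, and the RRP40 family overlapped within itself. It fell by 1.92 with rrp4-G226D, its change of -0.15 with rrp40-W195R was not called, and the difference was -1.77 ± 0.15 (adjusted p = 1.7e-06). HSP82, the inducible Hsp90, had 393, 369 and 408 CPM in rrp4-G226D and 832, 887 and 810.4 CPM in RRP4 libraries, against 175, 204 and 199 CPM in rrp40-W195R and 109.6, 118 and 139.8 CPM in RRP40 libraries. It fell with rrp4-G226D and rose by 0.65 with rrp40-W195R, a difference of -1.76 ± 0.11 (adjusted p = 4.86e-08). SSA2 and HSC82 differed by -1.59 ± 0.10 (adjusted p = 8.52e-09) and -1.19 ± 0.08 (adjusted p = 1.37e-08). SSA2 changed by -0.26 with rrp40-W195R, which was 0.056 with library totals. SSA1 and SSA2, and likewise HSP82 and HSC82, are near-identical copies, so the counts of each are uncertain. Both members of each pair had differences of one sign, which cannot tell the copies apart if they share reads.

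Over the list, 15 of 28 chaperone genes (53.6%) had a lower difference and 3 (10.7%) a higher one, against 20% and 17.3% of all features, with a median of -0.25. With rrp4-G226D 16 fell and 8 rose, and with rrp40-W195R 11 fell and 6 rose, while with library totals 14 fell and 11 rose with rrp4-G226D, and 7 fell and 15 rose with rrp40-W195R. The summed level was 7924 ± 79.2 CPM in rrp4-G226D and 17852 ± 574 CPM in RRP4 libraries, against 6994 ± 461 CPM in rrp40-W195R and 8196 ± 456 CPM in RRP40 libraries (mean ± SD, n = 3 each). The RRP4 controls were higher than the RRP40 controls in 18 of 28 and lower in 6, against 29.3% and 28.2% of all features. GAANNTTC, 1 arrangement of a minimal pair of heat shock units, was found in 16 of 28 windows (57.1%), against 606 of 5987 (10.1%). The window of SSA1 holds 1 match, in capitals, while that of HSP82 holds 0. Other arrangements of the units were not searched, so the 0 does not show that the HSP82 window lacks them. Among the 576 tested genes with GAANNTTC the difference was called lower in 156 (27.1%) and higher in 81 (14.1%), near the 25.3% and 17.6% of all 5651 genes with a window.
SSA1 upstream window, chrI:141532-141781, minus strand: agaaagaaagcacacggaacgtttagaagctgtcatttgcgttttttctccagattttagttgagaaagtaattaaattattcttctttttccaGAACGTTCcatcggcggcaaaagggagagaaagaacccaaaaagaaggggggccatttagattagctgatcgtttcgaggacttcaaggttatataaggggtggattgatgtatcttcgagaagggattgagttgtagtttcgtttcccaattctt
HSP30, a stress protein of the plasma membrane, had 41.9, 42.8 and 54.4 CPM in rrp4-G226D and 34.1, 58.2 and 61.5 CPM in RRP4 libraries, against 186, 293 and 335 CPM in rrp40-W195R and 19.1, 25.6 and 105 CPM in RRP40 libraries, where 1 RRP40 library stood above the other 2. Its difference of -2.63 ± 0.83 (adjusted p = 0.0379) lost its call in 9 of the 12 fits that left out 1 library, all but those without RRP4 replicate 1, RRP40 replicate 3 or rrp40-W195R replicate 1, with adjusted p-values up to 0.0832. CIP1, an inhibitor of cyclin-dependent kinase, differed by -1.81 ± 0.37 (adjusted p = 0.00508), and YGR079W by -1.37 ± 0.27 (adjusted p = 0.00361).

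Among the small RNAs, U6 snRNA and the snoRNAs snR128, snR40 and snR39B rose with rrp40-W195R, while their changes with rrp4-G226D were not called. The lack of a call may depend on the scaling, since library totals moved the median rrp4-G226D effect up by 0.329 (log2). U6 (snR6), the catalytic RNA of the spliceosome, had 63.4, 55.5 and 62.5 CPM in rrp4-G226D and 42.0, 56.6 and 50.4 CPM in RRP4 libraries, which overlap, against 204, 120.3 and 225 CPM in rrp40-W195R and 49.8, 53.3 and 41.1 CPM in RRP40 libraries. For the RRP40 family, no overlap of mutant and control was a condition for naming this RNA. The difference was -1.67 ± 0.32 (adjusted p = 0.00383). Of 5 spliceosomal snRNAs tested, U6 was the 1 with a lower difference (20%), while 2 had a higher one (40%). Of all features 20% and 17.3% did. The higher count was 0 to 2 over the 12 fits that left out 1 library. snR128, the U14 RNA needed for 18S rRNA processing, had 201, 170.5 and 175 CPM in rrp4-G226D and 174, 192 and 171 CPM in RRP4 libraries, against 433, 386 and 516 CPM in rrp40-W195R and 182, 199.9 and 201 CPM in RRP40 libraries. snR40, a methylation guide, had effects of -0.11 and 1.14, and snR39B, another guide, of 0.11 and 1.28, rrp4-G226D first. The differences were -1.17 ± 0.14 (adjusted p = 5.19e-05) for snR128, -1.25 ± 0.16 (adjusted p = 6.16e-05) for snR40 and -1.17 ± 0.23 (adjusted p = 0.00348) for snR39B. snR70 fell with rrp4-G226D by 0.40 and rose with rrp40-W195R by 0.66, a difference of -1.06 ± 0.12 (adjusted p = 1.85e-05).

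snR128, snR40, snR39B and snR70 belong to the C/D class, whose members fold around a box C (TGATGA) near the 5′ end and a box D (CTGA) near the 3′ end, both known to anchor the core proteins that mark the mature ends to which precursors are trimmed. Their genes are shown (RefSeq R64, RNA strand, DNA letters), with the first TGATGA and the last CTGA in capitals.
snR128, chrX:139566-139691, minus strand: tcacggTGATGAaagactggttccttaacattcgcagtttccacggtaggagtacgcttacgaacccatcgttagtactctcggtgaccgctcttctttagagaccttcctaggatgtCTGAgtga
snR40, chrXIV:89210-89306, plus strand: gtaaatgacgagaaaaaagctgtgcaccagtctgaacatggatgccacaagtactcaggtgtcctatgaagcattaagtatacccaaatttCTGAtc
snR39B, chrVII:366374-366469, minus strand: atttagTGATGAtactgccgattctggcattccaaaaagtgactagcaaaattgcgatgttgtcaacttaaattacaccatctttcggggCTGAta
snR70, chrXVI:718887-719050, minus strand: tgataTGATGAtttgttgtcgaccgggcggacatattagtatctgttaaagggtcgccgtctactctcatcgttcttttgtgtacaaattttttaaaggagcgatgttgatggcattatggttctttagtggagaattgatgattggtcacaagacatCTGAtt
The annotated snR40 holds no exact TGATGA. The files count reads over each gene and do not tell mature RNA and extended precursors apart.

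Over 46 C/D snoRNAs, 23 rose and 8 fell with rrp4-G226D (30 and 0 with library totals) and 36 rose and 5 fell with rrp40-W195R (40 and 2), and the difference was called lower in 14 (30.4%) and higher in 8 (17.4%), against 20% and 17.3% of all features, so the higher share was at the background. Without rrp40-W195R replicate 2 the lower count was 22, and without RRP40 replicate 2 or rrp40-W195R replicate 3 the higher count was 4. Of 29 H/ACA snoRNAs, which guide pseudouridine formation, 10 rose and 7 fell with rrp4-G226D, and 14 rose and 8 fell with rrp40-W195R. Of all features, 33.7% rose and 33.4% fell with rrp4-G226D, and 29.7% rose and 27.6% fell with rrp40-W195R. The difference was called in 5 H/ACA snoRNAs each way (17.2%), near the shares of all features. The higher count was 3 without RRP40 replicate 1 or 2 or rrp4-G226D replicate 3, and the lower count 3 without replicate 2 or 3 of RRP4 or rrp4-G226D or replicate 1 or 3 of rrp40-W195R. The summed C/D level was 11962 ± 530.5 CPM in rrp4-G226D and 13582 ± 1788 CPM in RRP4 libraries, against 12701 ± 189.5 CPM in rrp40-W195R and 15053 ± 870.5 CPM in RRP40 libraries (mean ± SD, n = 3 each). On the TMM scale the sum was therefore not higher in either mutant. This direction depends on the scaling, because the TMM factors were higher in the mutant libraries than in their controls. Of 197 tRNA features, 57 rose and 33 fell with rrp4-G226D (95 and 18 with library totals), and 69 rose and 2 fell with rrp40-W195R (128 and 1). The difference was called lower in 42 (21.3%) and higher in 4 (2.03%), so the lower share was near the 20% of all features and the higher one below their 17.3%. The higher count was 2 without RRP4 replicate 2, rrp4-G226D replicate 3 or rrp40-W195R replicate 1. The 2 falls with rrp40-W195R were 1 in 9 of the 12 fits that left out 1 library, all but those without RRP4 replicate 1 or 2 or rrp4-G226D replicate 1. In 196 of the 197 the mean was under 10 CPM, and identical tRNA genes share reads.

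Many cryptic transcripts rose with each allele, and few had a lower effect with rrp4-G226D. Of 635 CUTs tested, 439 rose and 20 fell with rrp4-G226D and 299 rose and 26 fell with rrp40-W195R, with medians of 0.74 and 0.48, and 279 rose with both. With library totals 534 and 440 rose, with medians of 1.07 and 0.81. The difference was called higher in 113 (17.8%) and lower in 13 (2.05%), so the higher share was near the 17.3% of all features and the lower share below their 20%. The median difference was 0.29, against 0.00 over all features. Of 692 stable unannotated transcripts (SUTs), 467 rose with rrp4-G226D and 278 with rrp40-W195R (599 and 496 with library totals), and the difference was called higher in 164 (23.7%) and lower in 14 (2.02%). Summed over the 635 CUTs the level was 3254 ± 38.7 CPM in rrp4-G226D and 2105 ± 68.7 CPM in RRP4 libraries, against 2393 ± 148 CPM in rrp40-W195R and 1926 ± 40.8 CPM in RRP40 libraries (mean ± SD, n = 3 each). Of the CUTs, 588 had a mean under 10 CPM, which limits the precision for single ones.

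CUT333 had 37.0, 37.7 and 38.3 CPM in rrp4-G226D and 8.84, 9.6 and 11.6 CPM in RRP4 libraries, against 18.0, 18.4 and 14.8 CPM in rrp40-W195R and 9.38, 9.44 and 9.45 CPM in RRP40 libraries. The controls of both families lay at one level, both mutants lay above them, and the difference was 1.04 ± 0.13 (adjusted p = 1.19e-05). SUT399 changed by 1.60 with rrp4-G226D and 0.23 with rrp40-W195R, the second not called, and SUT690 by 1.43 and 0.20, again without a call in the second, except without rrp40-W195R replicate 3 for SUT690; the differences were 1.378 ± 0.18 (adjusted p = 4.29e-05) and 1.23 ± 0.19 (adjusted p = 8.65e-05). Of 26 meiotic genes, whose stray mRNAs the nuclear exosome is known to remove in growing cells, 20 rose and 1 fell with rrp4-G226D and 16 rose with rrp40-W195R. The difference was called higher in 10 (38.5%) and lower in 1 (3.85%), against 17.3% and 20% of all features. Of the 26 genes, 12 had a mean under 10 CPM. The higher count was 5 without RRP4 replicate 3 or rrp4-G226D replicate 2 and 6 without RRP4 replicate 1, RRP40 replicate 2, rrp4-G226D replicate 3 or rrp40-W195R replicate 2, and the lower count was 0 to 2 over the 12 fits that left out 1 library. A higher count of 5 is near the share of all features. SPO11, which makes the meiotic DNA breaks, differed by 0.56 ± 0.11 (adjusted p = 0.000884), and MEI4, which acts with it, by 0.49 ± 0.14 (adjusted p = 0.0127). Whether a count belongs to a transcript or to one on the opposite strand cannot be told, because the strand setting is not given in the sources used here.

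The mRNAs of the exosome itself and of its nuclear helpers were among those that differed. RRP4 had 609.9, 592 and 603 CPM in rrp4-G226D and 396, 373 and 393 CPM in RRP4 libraries, against 107, 118 and 115 CPM in rrp40-W195R and 78.9, 79.0 and 82.3 CPM in RRP40 libraries. RRP40 had 60.8, 60.6 and 58.4 CPM in rrp4-G226D and 74.8, 73.0 and 76.8 CPM in RRP4 libraries, against 288, 358 and 348 CPM in rrp40-W195R and 220.5, 261 and 227 CPM in RRP40 libraries. Each gene was highest in the family that carried it on the plasmid, and in that family the mutant form was higher than the wild type, by 0.64 for RRP4 with rrp4-G226D and by 0.49 for RRP40 with rrp40-W195R. RRP4 also rose with rrp40-W195R, by 0.50. The difference was 0.14 ± 0.066 (adjusted p = 0.107) for RRP4, not called, and -0.81 ± 0.11 (adjusted p = 4.02e-05) for RRP40, whose change with rrp4-G226D was -0.32 and 0.0083 with library totals. Without rrp40-W195R replicate 2 the difference for RRP4 was 0.17 and was called, the 1 higher call then made among the subunits. Of 10 exosome subunit genes tested (MTR3 did not pass the filter), the difference was called lower in 7 (70%) and higher in 0, against 20% and 17.3% of all features: CSL4, the remaining cap subunit (-0.63 ± 0.069, adjusted p = 2.32e-06), RRP42 (-0.36 ± 0.07, adjusted p = 0.000587), RRP43 (-0.19 ± 0.065, adjusted p = 0.0253) and RRP45 (-0.36 ± 0.079, adjusted p = 0.00175) of the barrel, the nucleases DIS3 (-0.24 ± 0.07, adjusted p = 0.0115) and RRP6 (-0.31 ± 0.062, adjusted p = 0.000862), and RRP40 itself. For RRP46 (-0.14 ± 0.081, adjusted p = 0.204), SKI6 (-0.11 ± 0.076, adjusted p = 0.292) and RRP4 it was not called. RRP43 lost its call in 3 of the 12 fits that left out 1 library, those without replicate 3 of rrp4-G226D or RRP4 or rrp40-W195R replicate 2. The RRP4 controls were higher than the RRP40 controls in 6 of the 10 subunit genes and lower in 1, against 29.3% and 28.2% of all features. In 5 of the 7 differing ones the mutants were closer to each other than the controls were. Over all differing features this held in 1558 of 2888.

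Of 7 nuclear cofactor genes, the difference was called lower in 6 (85.7%) and higher in 0, against 20% and 17.3% of all features, with a median of -0.48. The RRP4 controls were higher than the RRP40 controls in 5 of the 7 and lower in 0, against 29.3% and 28.2% of all features. In 5 of the 6 differing cofactor genes the mutants were closer to each other than the controls were. Over all differing features this held in 1558 of 2888. TRF5, a poly(A) polymerase of the TRAMP complex that tags RNA for the exosome, had 63.8, 61.1 and 56.5 CPM in rrp4-G226D and 58.7, 55.0 and 60.3 CPM in RRP4 libraries, against 40.5, 34.5 and 38.4 CPM in rrp40-W195R and 23.2, 20.1 and 17.8 CPM in RRP40 libraries. The difference was -0.83 ± 0.11 (adjusted p = 3.25e-05). LRP1 and MPP6, which encode exosome-associated nuclear proteins, differed by -0.61 ± 0.087 (adjusted p = 3.3e-05) and -0.59 ± 0.14 (adjusted p = 0.00293). LRP1 changed by -0.19 with rrp4-G226D, which was 0.14 with library totals and not called without replicate 3 of rrp4-G226D or RRP4, and by 0.43 with rrp40-W195R. CSL4 changed by -0.17, or 0.16 with library totals, and by 0.45. Of 11 genes of the Nrd1-Nab3-Sen1 pathway, which ends short transcripts and hands them to the exosome, 6 rose and 2 fell with rrp4-G226D. Of all features 33.7% rose and 33.4% fell with it. With rrp40-W195R 5 rose and 2 fell, against 29.7% and 27.6% of all features. The difference was called in 1 of the 11 (9.09%), NRD1, against 37.3% of all features. NRD1 had 366, 373 and 344 CPM in rrp4-G226D and 237, 214 and 223 CPM in RRP4 libraries, against 384, 317 and 378 CPM in rrp40-W195R and 301, 263 and 254 CPM in RRP40 libraries. NRD1 rose with both alleles, and its difference of 0.29 ± 0.11 (adjusted p = 0.0423) lost the call in 7 of 12 fits that left out 1 library (rrp4-G226D replicate 1 or 2, RRP4 replicate 2 or 3, rrp40-W195R replicate 2, RRP40 replicate 1 or 2) and with library totals. In the fits without RRP40 replicate 3 or rrp40-W195R replicate 1, 2 genes of this list had a higher difference, and without RRP40 replicate 3 or rrp40-W195R replicate 3, 1 had a lower one.

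Among the 425 features called in opposite directions were genes of carbon, sulfur and phosphate uptake and use. MLS1, malate synthase of the glyoxylate cycle, had 33.4, 31.1 and 31.0 CPM in rrp4-G226D and 14.2, 13.9 and 14.8 CPM in RRP4 libraries, against 22.6, 16.3 and 22.5 CPM in rrp40-W195R and 35.8, 36.5 and 28.8 CPM in RRP40 libraries. The groups did not overlap within either family, which its choice required in the RRP4 family, and the difference was 1.85 ± 0.16 (adjusted p = 6.99e-07). STR3, which turns cystathionine into homocysteine, changed by 0.63 with rrp4-G226D and -1.08 with rrp40-W195R, and MUP3, a low-affinity methionine permease, by 0.62 and -0.98. GUT2, the mitochondrial glycerol-3-phosphate dehydrogenase, changed by 0.62 and -0.77, and PHO89, a phosphate importer, by 0.63 and -0.83. In the reverse direction, SFG1, a transcription factor of filamentous growth, changed by -0.51 with rrp4-G226D and 0.41 with rrp40-W195R. ZEO1, a membrane protein of the cell integrity pathway, changed by -0.40 and 0.42, and YDR524C-B by -0.52 and 0.41. All of these had a called difference, and their signs were the same with library totals, where the falls of ZEO1 and YDR524C-B with rrp4-G226D were -0.073 and -0.19 and no longer called, as were those of snR70 and DBP3, -0.074 and -0.083. The fall of ZEO1 with rrp4-G226D was also not called in 6 of the 12 fits that left out 1 library (any rrp4-G226D library, RRP4 replicate 2 or 3, rrp40-W195R replicate 3), nor its rise with rrp40-W195R in 8 (any rrp4-G226D library, RRP4 replicate 2, rrp40-W195R replicate 2 or 3, RRP40 replicate 1 or 2).

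Further lists differed mostly one way. The difference was called lower in 46 of 72 mitochondrial ribosomal protein genes (63.9%) and higher in 0; 67 fell with rrp4-G226D and 32 with rrp40-W195R, but with library totals 29 and 4 fell and 39 rose with rrp40-W195R. It was called lower in 21 of 29 translation initiation genes (72.4%), in 4 of 8 core histone genes and in 9 of 14 inositol and phospholipid genes. These shares stand against 20% lower and 17.3% higher over all features. Of 33 proteasome genes the difference was called lower in 11 (33.3%) and higher in 1, but lower in 7 without rrp4-G226D replicate 2, near the background. INO2, the activator of phospholipid genes, fell by 0.79 with rrp4-G226D and rose by 0.40 with rrp40-W195R, a difference of -1.19 ± 0.12 (adjusted p = 1.81e-06), and the inositol importer ITR1 differed by -1.02 ± 0.086 (adjusted p = 1.35e-07). INO1, inositol phosphate synthase, was the exception in that list, with 0.90 ± 0.14 (adjusted p = 0.000233). Nuclear genes of the respiratory chain had a higher difference in 18 of 33 (54.5%) and a lower one in 0. The medians were -0.01 for rrp4-G226D and -0.34 for rrp40-W195R, which were 0.32 and -0.02 with library totals. NDI1, the internal NADH dehydrogenase, had 47.6, 46.7 and 50.2 CPM in rrp4-G226D and 44.5, 44.2 and 44.7 CPM in RRP4 libraries, against 115, 107 and 116 CPM in rrp40-W195R and 203, 188 and 192 CPM in RRP40 libraries. The difference was 0.90 ± 0.068 (adjusted p = 3.9e-08). In that list the RRP4 controls were lower than the RRP40 controls in 33 of 33, against 28.2% of all features.

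**Figure D4:**
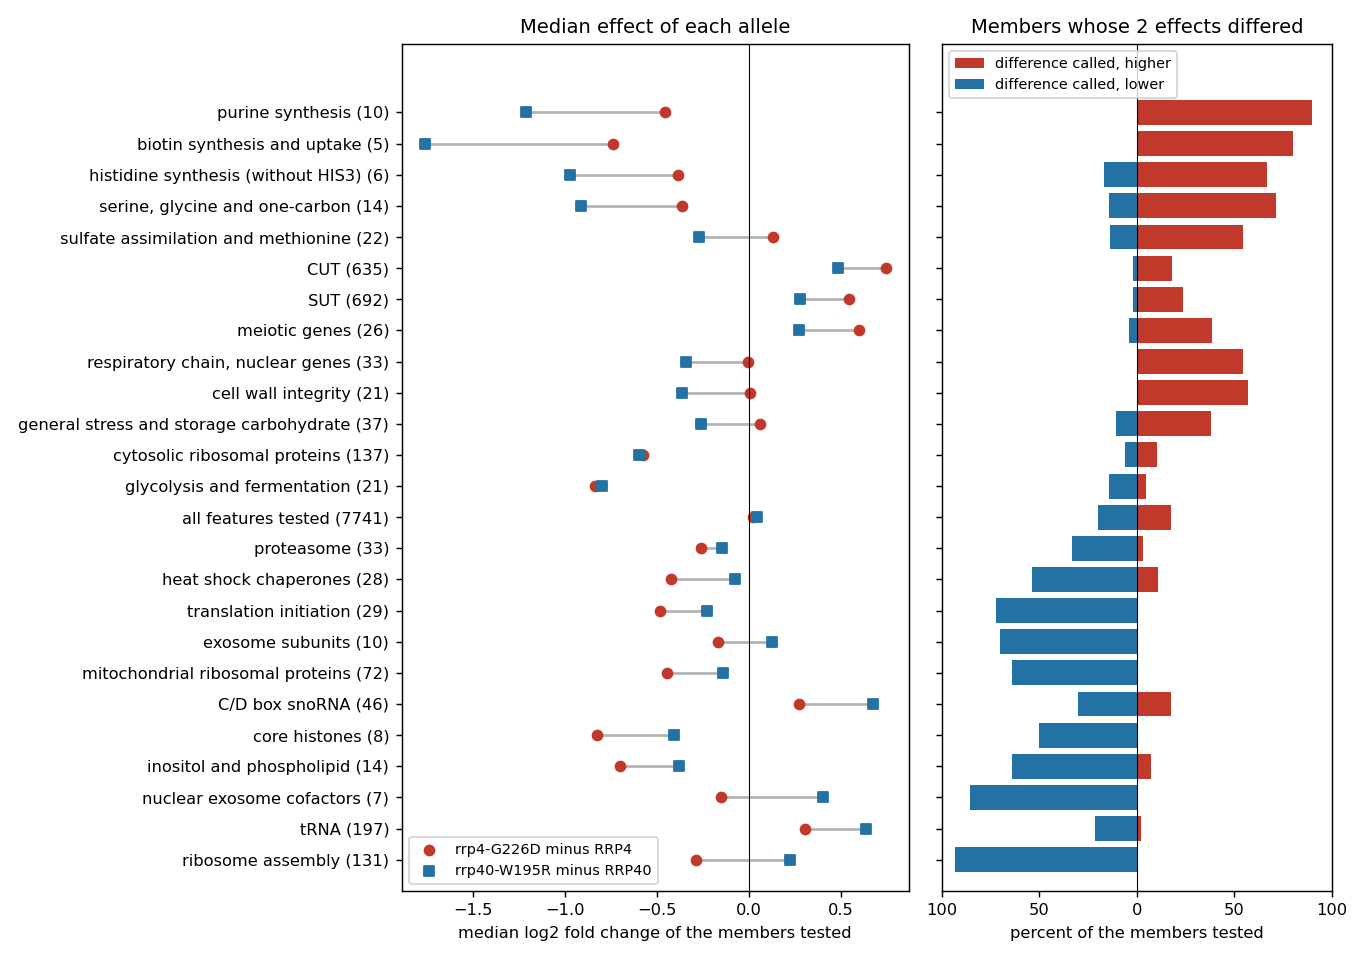
Left, median log2 fold change of the tested members (number in parentheses) of each gene list with rrp4-G226D (circles) and rrp40-W195R (squares), each against its own control; right, percent of members whose difference of effects was called higher (right of 0) or lower (left of 0). Cytosolic ribosomal proteins and glycolysis have nearly coincident medians, purine synthesis 90% of members to the right and ribosome assembly 93.1% to the left.

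The controls of the 2 families differed from each other. The RRP4 and RRP40 controls, both with a wild-type exosome gene, differed in 4445 of 7741 features (57.4%), and the mutants rrp4-G226D and rrp40-W195R in 5046 (65.2%; 34.2% higher and 31% lower in rrp4-G226D). The controls were called different in 1978 of the 2888 features whose effects differed, and the mutants lay closer to each other than the controls did in 1558 of these and farther apart in 1330. Among the 249 features with at least a 2-fold difference, the mutants were closer in 105 of the 167 higher ones and in 24 of the 82 lower ones. On the first principal component, with 56% of the variance, the rrp4-G226D and RRP40 libraries lay at opposite ends and the RRP4 and rrp40-W195R libraries between them. On the second, with 23.5%, the RRP4 libraries lay at one end and the rrp40-W195R libraries at the other.

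**Figure D5:**
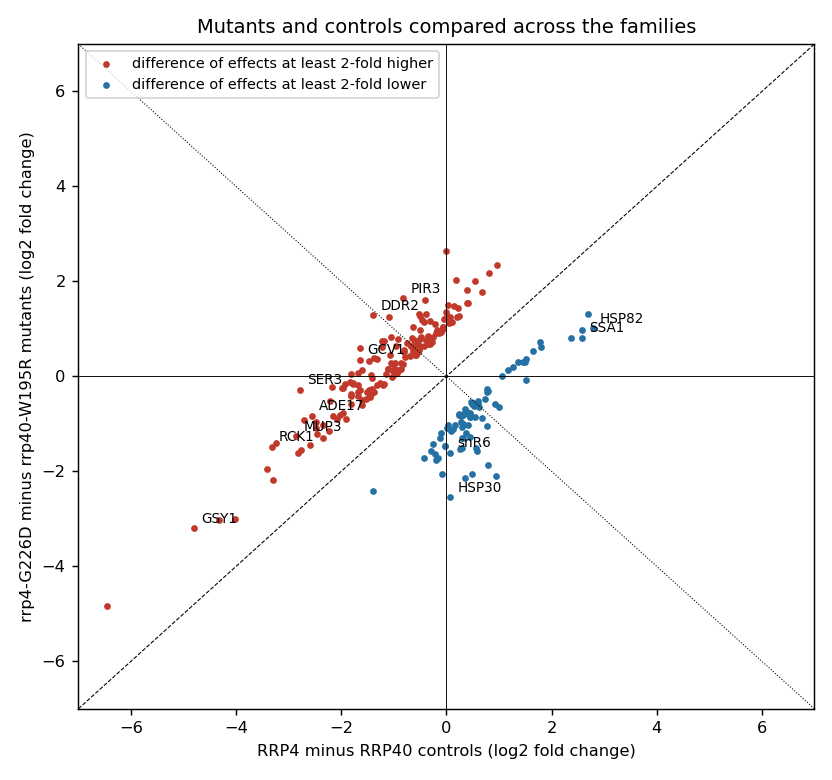
For the 249 features with a called difference of at least 2-fold, the log2 difference between the mutants (y axis) and between the controls (x axis), in each case RRP4 family minus RRP40 family; the dashed line marks equal distance and sign, the dotted line equal distance with the opposite sign. SER3, GCV1, SSA1 and HSP82 lie nearer to 0 on the mutant axis than on the control axis, while PIR3, snR6 and HSP30 lie farther out on it.

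The families also differed in mating type. Of 11 mating-type genes the difference was called higher in 6 (54.5%) and lower in 3 (27.3%), against 17.3% and 20% of all features. MFA1, the precursor of the MATa pheromone, had 3.38, 3.3 and 3.76 CPM in rrp4-G226D and 0.787, 1.76 and 1.42 CPM in RRP4 libraries, against 97.5, 98.7 and 99.6 CPM in rrp40-W195R and 129, 125 and 123 CPM in RRP40 libraries. The difference was 1.62 ± 0.15 (adjusted p = 4.09e-07). Its rise of 1.27 with rrp4-G226D was in MATα cells, which are not known to make this pheromone, and at a low level. MF(ALPHA)1, the MATα pheromone, fell by 1.25 with rrp4-G226D, in the cells that make it, with 331, 291 and 304 CPM in rrp4-G226D and 758, 697 and 755 CPM in RRP4 libraries. STE3 differed by -0.91 ± 0.089 (adjusted p = 6.32e-07) and STE2 by 0.54 ± 0.098 (adjusted p = 0.00031). For each receptor, 1 of the effects came from cells of the other mating type, at a low level. Scaled by library totals, STE3 averaged 8.4 CPM in rrp40-W195R and 6.43 CPM in RRP40 libraries, against 104 and 149 CPM in rrp4-G226D and RRP4 libraries. The counts over the 11 genes include such effects. The alleles, the exosome genes they belong to, the mating type and the LYS2 genotype changed together between the families, so their parts in a difference of effects cannot be told apart in these 12 libraries.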

How the data were processed

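The 12 libraries of rrp4-G226D, RRP4, rrp40-W195R and RRP40 were analysed from the raw counts per feature that the authors deposited, as whole numbers for each library, and the other 27 libraries entered only the joint fit. Per the labels' protocols, total RNA was depleted of rRNA and libraries were made with a Zymo-Seq RiboFree kit. The submitters' processing notes name STAR, featureCounts 1.22.2, StringTie 2.1.7, DESeq2 1.38.1 and build R64. Per the file headers, the counts came from alignments with duplicates marked. The annotation, the strand setting and the treatment of reads with several matches are not given in the sources used here, so overlapping and antisense genes and near-identical copies are uncertain. Of 8898 features, 6048 were matched to RefSeq R64 by locus tag and 114 by symbol, 1772 are named by a CUT or SUT catalogue and 964 by an identifier only.

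Features passing edgeR's filterByExpr (7741) were fitted in 1 model of the 12 libraries with edgeR 4.0.16 in R 4.3.3 (TMM factors, robust quasi-likelihood dispersions), and the difference of effects and each effect were tested as two-sided contrasts with Benjamini-Hochberg adjustment over all features at 0.05. CPM are on the TMM scale. The procedure was tested on simulated data. Libraries held 17244127 to 50306533 counts, and no 2 libraries agreed within sampling noise. Alternatives were library totals, DESeq2 1.42.0, 2 other filters, a joint fit, replicate blocks, non-robust dispersions, stricter thresholds and leaving out each library. Genes are named by 5 rules: the 12 largest differences each way with a mean of at least 10 CPM and no overlap of mutant and control in the family with the larger effect, the 6 largest opposite effects each way, the 4 largest shared ones each way, up to 3 per gene list, and the exosome, marker and mating-type genes. The shared effects were taken among features without a called difference. The 43 gene lists, the members and the motifs were chosen with earlier results of these data known.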

Additional observations from a re-analysis of the deposited data

Results flagged for a closer look

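The effect of rrp4-G226D against RRP4 differed from the effect of rrp40-W195R against RRP40 by the test of the difference itself (edgeR's quasi-likelihood test, Benjamini-Hochberg adjustment over all features) for 2888 of 7741 features, 37.3%. The features named by size or by opposite direction are given here with their difference of effects on the log2 scale. With a higher rrp4-G226D effect they were DDR2 (2.68), SER3 (2.50), PIR3 (2.47), GCV1 (1.996), YJR154W (1.96), MLS1 (1.85), RCK1 (1.84), GCV2 (1.79), RTC2 (1.79), YGR067C (1.75), AGP1 (1.74), AAD10 (1.74), STR3 (1.71), MUP3 (1.60), PHO89 (1.46) and GUT2 (1.40). With a lower rrp4-G226D effect they were HSP30 (-2.63), CIP1 (-1.81), SSA1 (-1.77), HSP82 (-1.76), snR6 (-1.67), SSA2 (-1.59), YGR079W (-1.37), snR40 (-1.25), INO2 (-1.19), HSC82 (-1.19), snR128 (-1.17), snR39B (-1.17), snR70 (-1.06), DBP3 (-1.02), YDR524C-B (-0.92), SFG1 (-0.92) and ZEO1 (-0.82). Groups of 3 libraries are too small for the screen on a single outlying library.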

How the results depend on the processing

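The number of features whose effects differed was 2888, and it was 2782 with library totals, 2841 with DESeq2, 2880 without the filter, 2889 with at least 10 counts in every library, 2925 without robust dispersions and 3252 in a joint fit of all 39 libraries. Leaving out each library in turn gave 2438, without rrp4-G226D replicate 3, to 2968, without rrp40-W195R replicate 1. No called difference of effects of a gene named here turned its sign under these alternatives; that of HXT4, not called, was -0.0067 without rrp4-G226D replicate 3. With library totals 3951 features rose and 370 fell with both alleles, 490 of the shared and differing ones were larger with rrp40-W195R, and 268 were opposite (and differing), 146 of them lower with rrp4-G226D and higher with rrp40-W195R. Among the rrp4-G226D effects reversed with library totals were those of RRP40 (0.0083), CSL4 (0.16), LRP1 (0.14), RPL8A (0.24), RRP36 (0.085) and ADE12 (0.17). Among the rrp40-W195R effects they were those of SSA2 (0.056) and RPL7B (0.036). Small falls that were not called, such as those of GCV1, GCV2 and snR40 with rrp4-G226D and of SSA1 with rrp40-W195R, may also turn. Library totals moved the median effects up by 0.329 with rrp4-G226D and by 0.324 with rrp40-W195R. Leaving out 1 library gave 10 to 37 ribosomal protein genes with a higher difference and 12 to 22 C/D snoRNAs with a lower one. The stricter rules gave 249 features at 2-fold, 866 at 1.5-fold and 1877 at an adjusted p under 0.01, 850 higher and 1027 lower. Under the last rule 412 were shared and differing, 320 larger with rrp4-G226D and 92 with rrp40-W195R, and 232 were opposite, 80 higher with rrp4-G226D and 152 lower. Same-numbered libraries of different groups did not deviate together (correlations of -0.123 to 0.126), so the numbers do not pair them; with the replicate number as a block the count was 2817, and with a block within each family 2895. Depth limits tRNA and CUT features most, nearly all of which lay under 10 CPM.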
